A study of Homo sapiens with 6 samples.

Results

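The endoplasmic reticulum (ER) stress chaperones and sensors were 10 genes chosen by name: HSPA5, HSP90B1, DNAJC3, DNAJB9, HERPUD1, SEL1L, XBP1, ATF6, ATF4 and DDIT3. All 10 were measured, among 19775 genes in all, by 25 of the 41091 probe sets that carried a single gene symbol. A probe set is a group of short array probes that reports 1 transcript region. Where a gene had several, the brightest over the 6 arrays stood for it, and the other 15 probe sets, which belonged to 8 of the genes, are given beside it. No filter on low values was used, and all 10 representative probe sets lay above the median of all array values. The list was set by gene name, with earlier results of these data known.

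The samples came from CaSki, an established human cervical squamous carcinoma cell line, grown either with 2 ng/mL of recombinant TGF-β1 or in medium without it. There were 3 arrays per group, numbered 1 to 3 in the titles, and both groups were otherwise labelled alike. Neither the length of treatment nor the source culture of each array is stated in the labels. The p-values therefore reflect only how much these arrays vary, and that variation may be technical. Of the squamous epithelial markers, 7 of 7 measured lay above the array median, whereas 4 of 7 fibroblast markers (LUM, PDGFRA, COL6A3 and TCF21), 2 of 5 endothelial and 3 of 5 immune markers lay below it.

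The ER folds secreted and membrane proteins with chaperones, and misfolded proteins are returned to the cytosol for destruction by ER-associated degradation. When unfolded proteins build up, the sensors IRE1, PERK and ATF6 start the unfolded protein response, which raises chaperone and degradation genes. IRE1 splices the XBP1 messenger RNA, ATF6 is cut from the membrane to become a transcription factor, and PERK slows translation while favouring that of ATF4, an activator of DDIT3. Splicing, cleavage and translation were not measured by these arrays, which report transcript levels only.

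Promoters of several ER chaperone genes are known for the ER stress response element (ERSE), the site at which cleaved ATF6 binds together with NF-Y. Promoters are shown for the 3 genes that rose and for HSP90B1, XBP1 and DDIT3, which did not pass and hold marked matches. SEL1L, which holds a match, and DNAJB9, ATF4 and ATF6, which hold none, are left out. The printed promoters thus do not compare genes that rose with those that did not. The 250 bases before the RefSeq start site (GRCh38.p14) are given for every promoter printed. Each is read 5′ to 3′ on the strand of the gene, and capitals mark matches to the ERSE (CCAAT and CCACG with 9 bases of any kind between them), to the ERSE with 1 mismatch allowed in its last 5 letters, or to ERSE-II (ATTGG and CCACG with 1 base between them), on either strand.
HSPA5, chr9:125241344-125241593, minus strand: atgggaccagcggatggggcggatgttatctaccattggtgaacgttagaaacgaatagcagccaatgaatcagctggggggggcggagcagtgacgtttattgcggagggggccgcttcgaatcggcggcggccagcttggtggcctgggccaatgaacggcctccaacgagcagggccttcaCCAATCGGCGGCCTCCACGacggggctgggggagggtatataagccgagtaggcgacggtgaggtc
HERPUD1, chr16:56931892-56932141, plus strand: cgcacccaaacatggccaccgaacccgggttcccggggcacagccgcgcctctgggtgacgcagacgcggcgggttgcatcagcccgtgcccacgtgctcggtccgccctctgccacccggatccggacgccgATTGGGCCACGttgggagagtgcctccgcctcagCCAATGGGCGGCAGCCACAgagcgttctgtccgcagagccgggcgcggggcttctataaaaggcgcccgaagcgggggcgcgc
DNAJC3, chr13:95676889-95677138, plus strand: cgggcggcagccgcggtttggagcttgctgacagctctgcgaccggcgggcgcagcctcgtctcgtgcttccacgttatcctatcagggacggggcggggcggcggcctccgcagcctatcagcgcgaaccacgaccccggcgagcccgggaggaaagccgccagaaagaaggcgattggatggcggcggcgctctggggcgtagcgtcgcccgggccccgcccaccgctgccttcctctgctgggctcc
HSP90B1, chr12:103930160-103930409, plus strand: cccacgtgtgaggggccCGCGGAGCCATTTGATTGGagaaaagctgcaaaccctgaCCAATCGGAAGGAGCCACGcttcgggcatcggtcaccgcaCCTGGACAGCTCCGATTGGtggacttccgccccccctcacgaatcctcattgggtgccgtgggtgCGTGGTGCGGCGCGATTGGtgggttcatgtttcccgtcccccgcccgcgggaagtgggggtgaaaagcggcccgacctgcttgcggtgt
XBP1, chr22:28800570-28800819, minus strand: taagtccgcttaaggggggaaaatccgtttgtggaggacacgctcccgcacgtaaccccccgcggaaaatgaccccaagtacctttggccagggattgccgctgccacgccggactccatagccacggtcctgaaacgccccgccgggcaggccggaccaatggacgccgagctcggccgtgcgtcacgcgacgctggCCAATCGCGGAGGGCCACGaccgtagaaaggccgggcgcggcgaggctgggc
DDIT3, chr12:57520515-57520764, minus strand: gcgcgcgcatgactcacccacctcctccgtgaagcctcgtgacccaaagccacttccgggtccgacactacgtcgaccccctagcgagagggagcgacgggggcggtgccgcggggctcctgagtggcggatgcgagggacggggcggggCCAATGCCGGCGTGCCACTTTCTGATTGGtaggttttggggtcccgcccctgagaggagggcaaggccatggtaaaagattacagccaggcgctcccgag

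All 10 genes had a promoter entry, and the search also covered the 50 bases after the start site. There were 13 windows in all, since XBP1, ATF4 and DDIT3 had a second start site, whose window is not printed. A gene counted as holding an element if any of its windows did. The second XBP1 window held none of the elements searched, and that of DDIT3 held the same matches as its first. The exact ERSE was present in HSPA5 (1 copy, 66 to 48 bases before the start), in XBP1 (52 to 34 bases before it) and in HSP90B1 (2 of its 4 marked stretches, on opposite strands). These were 3 of the 10 genes, against 0.0916% of all 27305 genes with an entry. ER chaperone promoters are known for this element, as stated above, so finding it here was not an independent result. With 1 mismatch allowed, HERPUD1, DDIT3 and SEL1L held a match too, making 6 of 10 against 1.28% of all genes. The 2 such matches of DDIT3 overlapped each other, on opposite strands. HERPUD1 alone held ERSE-II, 117 to 107 bases before the start, which 0.0696% of genes held. DNAJC3, DNAJB9, ATF4 and ATF6 held none of these letters in this window. The 10 genes were chosen by name as ER stress genes, so neither the match with 1 mismatch nor ERSE-II was an independent result. The core of the XBP1-type element (TGACGTGG) was found in 0 of the 10 promoters and in 0.927% of all genes. The core of the amino acid response element (TGATGNAA), to which ATF4 binds, was found in HERPUD1, where it lay 176 to 169 bases before the start, and in 4.46% of all genes.

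Expression is given on the log2 scale of the deposited values, and each difference is TGF-β1-treated minus untreated. With TGF-β1, 3 of the 10 genes rose, HSPA5, DNAJC3 and HERPUD1, each by less than 1.30-fold, and 0 fell (limma, adjusted p below 0.05 over all 19775 genes). Among all genes tested, 4.03% rose and 4.47% fell, and among the 13085 above the array median 5.55% and 6.43%. At an unadjusted p below 0.05, 6 of the 10 were higher and 0 lower, against 10.6% and 12.6% of all genes. Over the mean of all probe sets of each gene, only HSPA5 passed, and 2 of the 10 were higher at an unadjusted p below 0.05. In that fit 673 of all 19775 genes rose at the adjusted threshold, and the share at an unadjusted p is not given. The arrays average over all cells, so a change in a share of the cells cannot be told apart from a smaller change in every cell. The median difference of the 10 was 0.24, that of all genes -0.0027. Over the mean of all probe sets the median of the 10 was 0.07. Treated and untreated values did not overlap for 6 of the 10 genes in the higher direction and for 1 in the lower direction, against 12.9% and 16.3% of all genes.

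**Figure D1:**
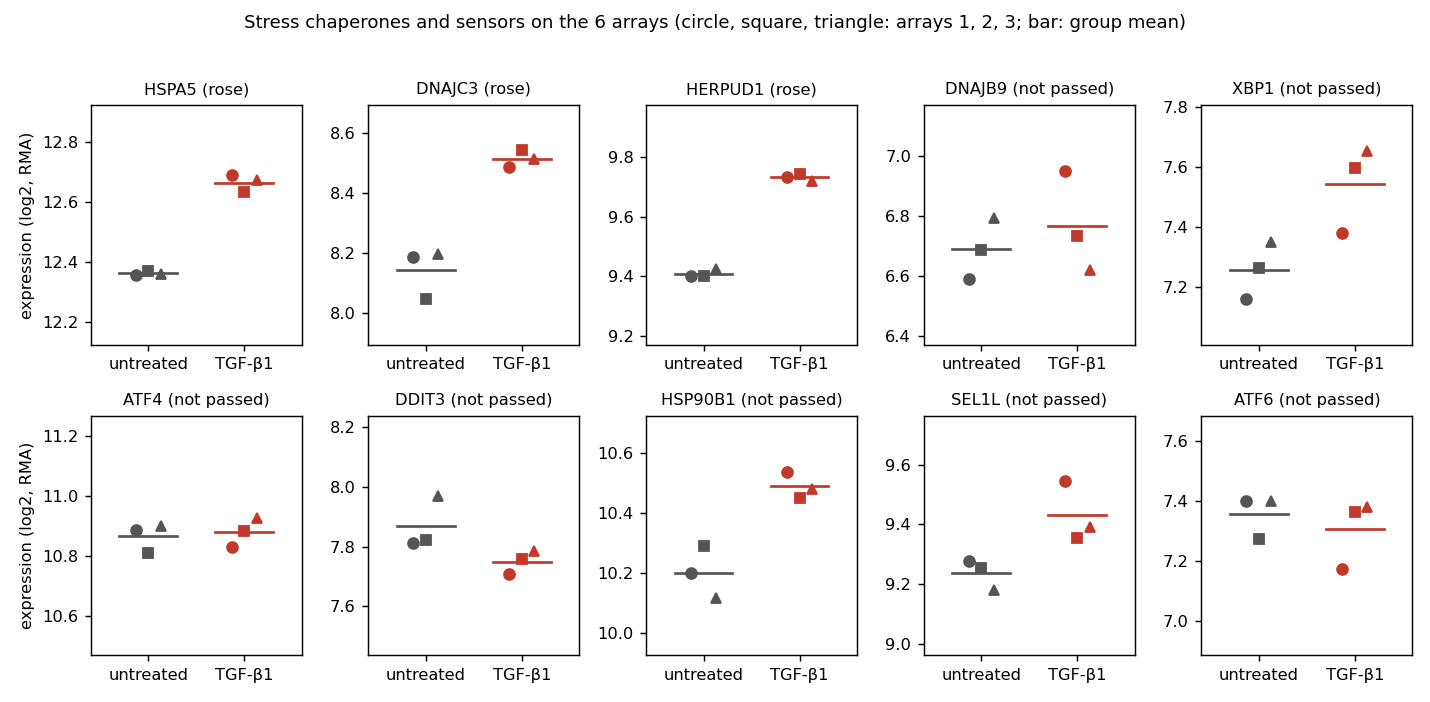
Expression (log2, RMA) of each gene's representative probe set on the 3 untreated (grey) and 3 TGF-β1-treated (red) arrays, with the marker shape giving the array number and the bar the group mean; all panels span the same height. HSPA5, DNAJC3 and HERPUD1 show separated groups, with little spread for HSPA5 and HERPUD1, while ATF4, DNAJB9 and ATF6 overlap.

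HSPA5 encodes BiP, the Hsp70-type chaperone of the ER lumen that binds unfolded chains and holds the stress sensors inactive. Its probe set 211936_at read 12.36, 12.37 and 12.36 on untreated arrays 1 to 3 and 12.69, 12.63 and 12.67 on treated arrays 1 to 3. The 3 untreated values lay almost on top of each other, and every treated value was above them. The difference was 0.30 ± 0.06 (SE, 95% interval 0.15 to 0.45), 1.23-fold, with a limma adjusted p of 0.0274. Adjusted over all 41091 probe sets instead of genes, the same probe set missed the threshold (limma adjusted p = 0.0537). The second HSPA5 probe set, 230031_at, read 6.999, 7.29 and 7.36 on untreated and 7.79, 8.02 and 7.97 on treated arrays. It rose by more, at 0.71 ± 0.11 (SE), or 1.64-fold, with an adjusted p of 0.0113 over the probe sets. The change of 230031_at exceeded that of 211936_at by 0.41, with a p of 0.1 in an exact two-sided permutation test, the smallest possible with 3 against 3. Among the 15 probe sets compared with their gene's representative in this way, that p became 0.375 after Benjamini-Hochberg adjustment.

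HSP90B1 encodes GRP94, the Hsp90 of the ER lumen, which completes the folding of a narrower set of clients that includes integrins and Toll-like receptors. Its representative 216449_x_at read 10.2, 10.29 and 10.11 on untreated and 10.54, 10.45 and 10.48 on treated arrays. The groups did not overlap, but the difference of 0.29 ± 0.08 (SE, 95% interval 0.12 to 0.46) narrowly missed the threshold (limma adjusted p = 0.054). The other probe set, 216450_x_at, differed by -0.17 without passing, at a mean of 7.02 against 10.3 for the first, so the sign for this gene depended on the probe set. Both carry the suffix that marks probes shared with other transcripts. A further 2 probe sets list HSP90B1 together with a microRNA gene and were not used, since they carry more than 1 symbol. They were brighter, at means of 11.6 and 12.0, and may report HSP90B1 better, so the values above are those of the 2 probe sets used and not a settled change of the gene.

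DNAJC3 and DNAJB9 encode J-domain partners that stimulate the ATPase of BiP. DNAJC3, also known as P58IPK, read 8.19, 8.05 and 8.197 on untreated arrays and 8.49, 8.54 and 8.51 on treated arrays at 225284_at. It had the largest of the 10 differences, 0.37 ± 0.07 (SE, 95% interval 0.20 to 0.54), or 1.29-fold, with a limma adjusted p of 0.0204. Every treated value exceeded every untreated one. The other 3 DNAJC3 probe sets, at means of 6.56, 6.28 and 5.45, differed by 0.32, 0.20 and 0.0031 without passing. Over the mean of its 4 probe sets the gene's difference was 0.22 and the call was lost (adjusted p = 0.13).

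DNAJB9, also known as ERdj4, which keeps IRE1 bound to BiP, did not follow. It read 6.59, 6.69 and 6.79 on untreated and 6.95, 6.73 and 6.62 on treated arrays, with overlapping groups. The difference was 0.08 ± 0.10 (SE, 95% interval -0.16 to 0.31, limma adjusted p = 0.70). The array numbered 1 was the lowest of the untreated and the highest of the treated group. Without treated array 1 the difference was -0.013. Its 2 dimmer probe sets differed by 0.13 and 0.14 without passing.

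HERPUD1 and SEL1L belong to the HRD1 complex, which passes misfolded proteins out through the ER membrane. HERPUD1, a membrane protein with a ubiquitin-like domain, read 9.403, 9.401 and 9.42 on untreated and 9.73, 9.74 and 9.72 on treated arrays at 217168_s_at. The spread within each group (SD 0.0132 and 0.0116) was small beside the difference of 0.32 ± 0.06 (SE, 95% interval 0.18 to 0.47), which was 1.25-fold with a limma adjusted p of 0.0208. The other HERPUD1 probe set, 1569380_a_at, lay below the array median at 3.21 and differed by -0.15 without passing. Over the mean of both the difference was 0.09 and the call was lost (adjusted p = 0.54).

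SEL1L, the adaptor that stabilises the HRD1 ligase, had 4 probe sets, none of which passed, with differences of either sign. The brightest, 202061_s_at, read 9.28, 9.25 and 9.18 on untreated and 9.55, 9.35 and 9.39 on treated arrays, higher without overlap. Its difference was 0.19 ± 0.08 (SE, 95% interval 0.01 to 0.37) and did not pass (limma adjusted p = 0.19). The next, 202062_s_at, read 7.57, 7.74 and 7.57 on untreated and 7.32, 7.48 and 7.51 on treated arrays, lower without overlap, a difference of -0.19. The second difference minus the first was -0.38, with an exact two-sided permutation p of 0.1, the smallest possible, and 0.375 after adjustment over 15. The remaining 2 differed by 0.11 and 0.08.

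Of the transcription factors, XBP1 had the largest difference. At 200670_at it read 7.16, 7.26 and 7.35 on untreated and 7.38, 7.597 and 7.66 on treated arrays. The groups did not overlap, although only 0.0316 separated the highest untreated from the lowest treated array. The difference of 0.29 ± 0.09 (SE, 95% interval 0.07 to 0.51) did not pass (limma adjusted p = 0.113). Its second probe set lay below the array median, at 4.07, and differed by -0.09. The array numbered 1 was the lowest of each group.

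ATF6, the sensor that becomes a factor, read 7.398, 7.27 and 7.398 on untreated and 7.17, 7.36 and 7.38 on treated arrays, with overlap and a difference of -0.05 ± 0.08 (SE, 95% interval -0.25 to 0.14, limma adjusted p = 0.76). Its other 3 probe sets also had negative differences, -0.16, -0.33 and -0.14, none of which passed. The groups of 217550_at did not overlap, at 6.104, 6.28 and 6.196 untreated and 6.06, 5.78 and 5.76 treated (limma adjusted p = 0.128 over the probe sets).

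ATF4 and its target DDIT3, which encodes the pro-apoptotic factor CHOP, had 1 probe set each. ATF4 read 10.89, 10.81 and 10.901 on untreated and 10.83, 10.88 and 10.93 on treated arrays, a difference of 0.01 ± 0.07 (SE). Its 95% interval ran from -0.15 to 0.17 (limma adjusted p = 0.93). DDIT3 read 7.81, 7.82 and 7.97 on untreated and 7.71, 7.76 and 7.78 on treated arrays. All treated values lay below the untreated ones, by 0.0294 at the closest, and the difference of -0.12 ± 0.07 (SE, 95% interval -0.29 to 0.05) did not pass (limma adjusted p = 0.40).

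**Figure D2:**
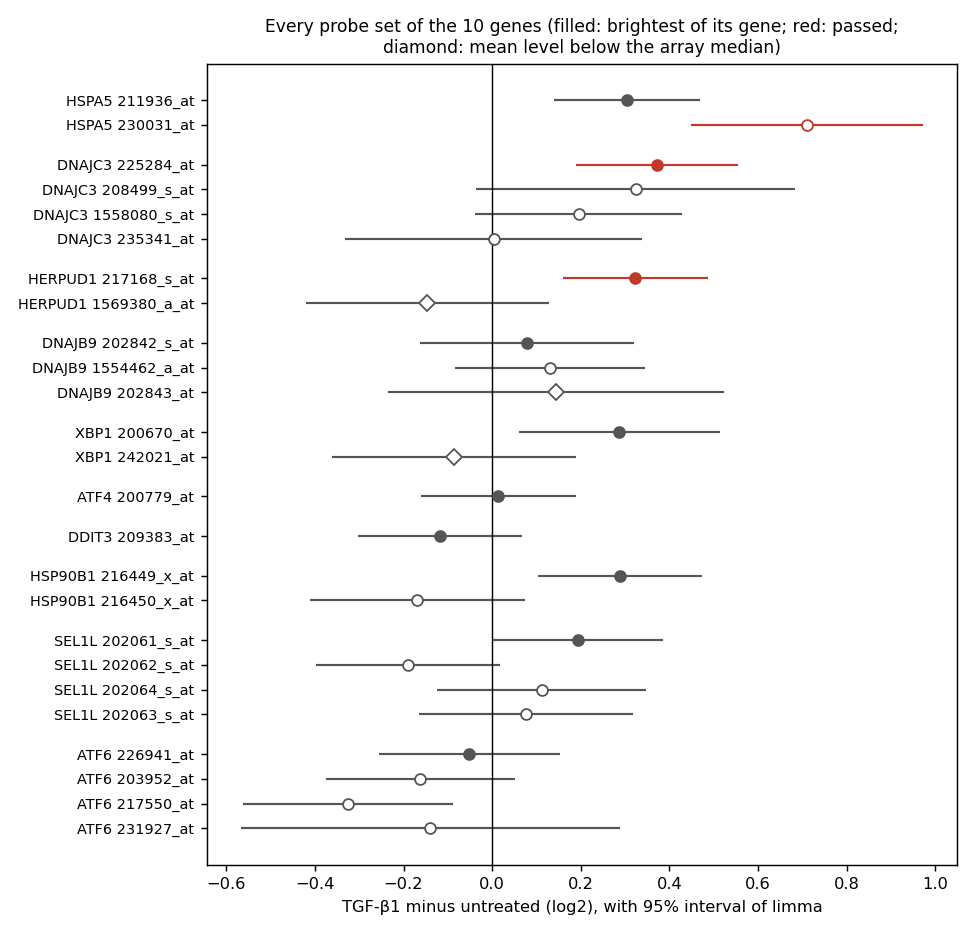
TGF-β1 minus untreated difference (log2) with its 95% interval for each of the 25 probe sets, with p-values adjusted over all 41091 probe sets; filled markers are the representative of a gene, red markers passed and diamonds lay below the array median. Of the 25, 3 passed, all upward, and the probe sets of HSP90B1, SEL1L, XBP1 and HERPUD1 lie on both sides of 0.

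Over all 25 probe sets, 16 differences were positive and 9 negative, and 3 rose and 0 fell with adjustment over probe sets, against 2.36% and 2.31% of all 41091. Among the 12 other probe sets above the array median, 7 differences were positive and 5 negative. The 3 gene calls were close to the threshold. None passed without each single array in turn. HSPA5 was lost whichever array was left out (adjusted p 0.0559 to 0.0913). DNAJC3 and HERPUD1 passed only when the array removed was treated array 1, and missed on removal of any other (adjusted p up to 0.08 for each). Their differences moved little in these 6 fits, from 0.29 to 0.32 for HSPA5, 0.32 to 0.40 for DNAJC3 and 0.32 to 0.33 for HERPUD1.

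**Figure D3:**
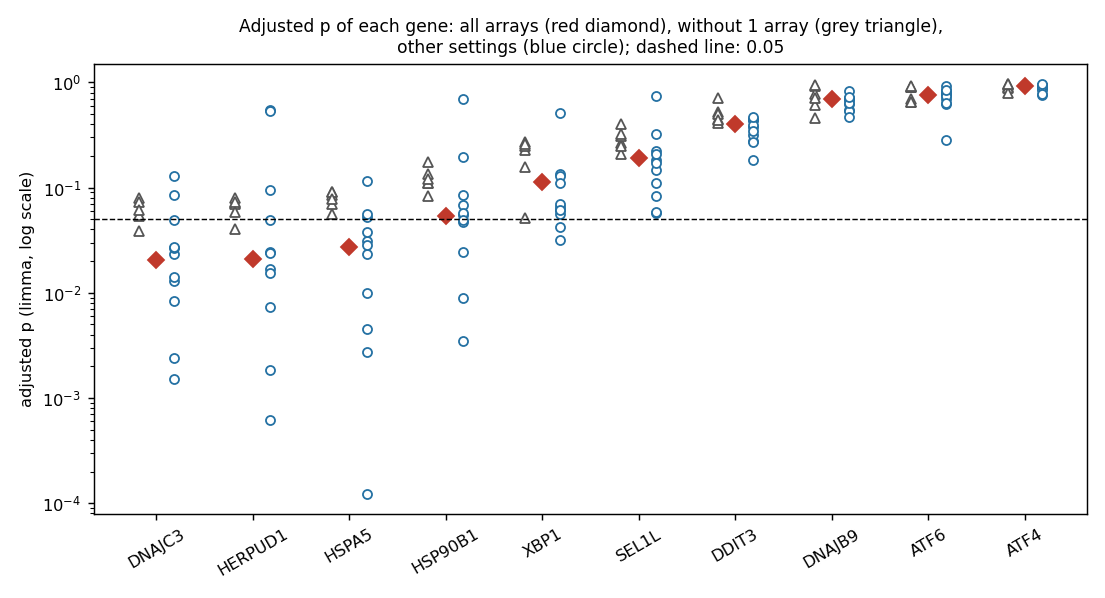
Adjusted p of each gene (log axis, limma) with all 6 arrays (red diamond), without 1 array (grey triangles) and under the other settings (blue circles), with the threshold of 0.05 dashed. HSPA5, DNAJC3, HERPUD1, HSP90B1 and XBP1 lie on both sides of the threshold, and the other 5 genes lie above it in every fit.

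The control probes gave a check of RNA quality. The 3′ over 5′ signal of GAPDH and ACTB was 1.19 and 1.15 (log2) on the arrays numbered 1 and 0.690 to 0.863 on the other 4. With this signal as a covariate, HSPA5, DNAJC3, HERPUD1 and HSP90B1 passed, among 860 of all 19775 genes that rose. The summed log2 level of the 7 fibroblast markers was 26.3 to 27.0 on untreated and 27.1 to 27.3 on treated arrays, with 0 of 7 called at the adjusted threshold and 1 higher at an unadjusted p below 0.05 (limma). Its part in these results was not tested. The summed levels of the other marker lists overlapped between untreated and treated arrays, at 75.3 to 75.9 and 75.6 to 76.6 for the 7 squamous markers, 21.16 to 21.23 and 21.15 to 21.5 for the 5 endothelial markers, and 18.8 to 18.9 and 18.8 to 19.4 for the 5 immune markers. Of these, KRT14 and KDR rose, and EPCAM and CDH5 fell (limma, adjusted p below 0.05), KDR and CDH5 at levels below the array median.

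The wider pathway was described with lists of other genes by role. In the order below, 4.35%, 9.52%, 6.25%, 8%, 7.5% and 9.52% of their genes rose. Of all genes 4.03% rose and 4.47% fell, and of those above the array median 5.55% and 6.43%. At an unadjusted p below 0.05, 10.6% of all genes were higher and 12.6% lower. The first list held 23 measured folding factors of the ER lumen, of which 1 rose, CALR, and 0 fell (limma, with 11 higher and 3 lower at an unadjusted p below 0.05). CALR, which encodes the lectin chaperone calreticulin, read 8.68, 8.699 and 8.57 on untreated and 8.998, 9.02 and 9.05 on treated arrays. It rose 1.30-fold, by 0.37 ± 0.07 (SE, adjusted p = 0.0171), a call kept only without untreated array 2 or treated array 1 when single arrays were removed (adjusted p up to 0.0699). The other 2 CALR probe sets differed by 0.40 and 0.29 without passing. Across the list, 20 differences were positive and the median was 0.08.

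Of 21 measured genes of ER-associated degradation outside the 10, 2 rose and 0 fell (limma, with 6 higher and 0 lower at an unadjusted p below 0.05). UBE2J1 encodes the membrane-anchored ubiquitin-conjugating enzyme of this route. It read 7.68, 7.55 and 7.74 on untreated and 8.28, 8.26 and 8.31 on treated arrays, a rise of 0.63 ± 0.07 (SE), or 1.55-fold (adjusted p = 0.0021). This was larger than any of the 10 representative differences, it passed in each of the 6 fits without 1 array (adjusted p 0.0083 to 0.0121), and 4 of its 6 probe sets passed over the probe sets. OS9, a lectin that recognises misfolded glycoproteins, rose 1.31-fold (adjusted p = 0.0239), a call that was kept only without treated array 1 when single arrays were left out (adjusted p up to 0.0849). The list median was 0.06.

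Among 16 other sensors and transducers 1 rose and 0 fell (limma, with 2 higher and 3 lower at an unadjusted p below 0.05), and the list median was -0.06. The rise was that of CREB3L1, a membrane-bound factor cut like ATF6 and known for collagen secretion, from 5.87 ± 0.0226 to 6.22 ± 0.128 (SD, n = 3), 1.27-fold with a limma adjusted p of 0.04. Removing any single array ended this call (adjusted p 0.0555 to 0.128). ERN1, which encodes IRE1, and EIF2AK3, which encodes PERK, differed by -0.11 and -0.10 without passing, ERN1 at a level of 4.16, just below the array median.

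Of 25 measured targets of ATF4 and CHOP, 2 rose and 2 fell (limma, with 4 higher and 7 lower at an unadjusted p below 0.05), and the median was -0.01. ATF3, a stress-induced factor, had the largest difference of any list gene. It read 7.51, 7.44 and 7.38 on untreated and 8.76, 8.69 and 8.92 on treated arrays, a rise of 1.35 ± 0.08 (SE), or 2.54-fold (limma adjusted p = 8.3e-05). Over the mean of its 3 probe sets, 1 of them near the array median, the difference was 0.76. SESN2, a sestrin that restrains mTORC1, rose 1.48-fold (adjusted p = 0.002). SLC7A11, the cystine transporter, was 1.39-fold lower (adjusted p = 0.0114), lost without untreated array 3 (adjusted p = 0.0536). XPOT, which exports transfer RNA from the nucleus, was 1.34-fold lower (adjusted p = 0.0307), kept only on removal of untreated array 2 or treated array 1 (adjusted p up to 0.112). The ATF4 transcript itself differed by 0.01, as above.

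Of 40 measured genes for entry into and exit from the ER, 3 rose and 0 fell (limma, with 9 higher and 2 lower at an unadjusted p below 0.05), with a median of 0.03. SEC61A1, the channel subunit through which new chains enter, rose 1.31-fold (adjusted p = 0.015). KDELR3, a receptor that returns ER residents such as BiP from the Golgi, rose 1.30-fold (adjusted p = 0.0139), and SEC31A, of the COPII coat, 1.22-fold (adjusted p = 0.0444). SEC31A missed whichever array was removed (adjusted p 0.0746 to 0.152). SEC61A1 was kept only on removal of treated array 1 or 2 (adjusted p up to 0.0606), and KDELR3 only on removal of untreated array 3 or treated array 1 or 2 (adjusted p up to 0.0586).

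Chaperones outside the ER were examined for comparison. Of 21 measured cytosolic and mitochondrial chaperones 2 rose and 6 fell (limma, with 3 higher and 8 lower at an unadjusted p below 0.05), and the median was -0.15. HSPD1 and HSPE1, the mitochondrial chaperonin and its lid, were 1.51-fold and 1.46-fold lower (limma adjusted p = 0.0017 and 0.0029). HSPD1 read 12.41, 12.34 and 12.43 on untreated and 11.81, 11.82 and 11.76 on treated arrays. The 2 genes of the list that rose both encode small heat shock proteins, HSPB1 (1.72-fold, limma adjusted p = 9.5e-04) and HSPB8 (1.47-fold, adjusted p = 0.005). These 4 calls held in each of the 6 fits without 1 array. Without suffixed probe sets, though, HSPD1 and HSPB8 rest on dimmer probe sets that differed by -0.26 and 0.02 and did not pass. That of HSPD1 lay below the array median, at 3.85. A second suffixed HSPD1 probe set, at a mean of 11.06, differed by -0.43 and passed (limma adjusted p = 0.0154 over the probe sets). The remaining HSPD1 probe sets, at 3.49 and 2.11, differed by 0.19 and -0.03 without passing. HSPA9, the mitochondrial relative of HSPA5, was 1.24-fold lower (adjusted p = 0.046), where HSPA5 was 1.23-fold higher. HSPA9 was named after its values were seen, and no fit without an array or with other probe sets is given for it. Over the mean of all probe sets of a gene, the calls of OS9, CREB3L1, XPOT, SEC61A1, SEC31A and HSPD1 were lost (limma adjusted p 0.0783 to 0.26). Without suffixed probe sets the call of CALR was lost (adjusted p = 0.21), as were those of HSPD1 and HSPB8. SEC31A, OS9, SEC61A1, SESN2, HSPB1 and HSPE1 have only suffixed probe sets. In that fit these genes kept their representative, so it was no check of their probe sets. SEC31A kept its difference of 0.29, but missed the threshold (limma adjusted p = 0.0579). Whether the lists differ from each other was not tested.

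**Figure D4:**
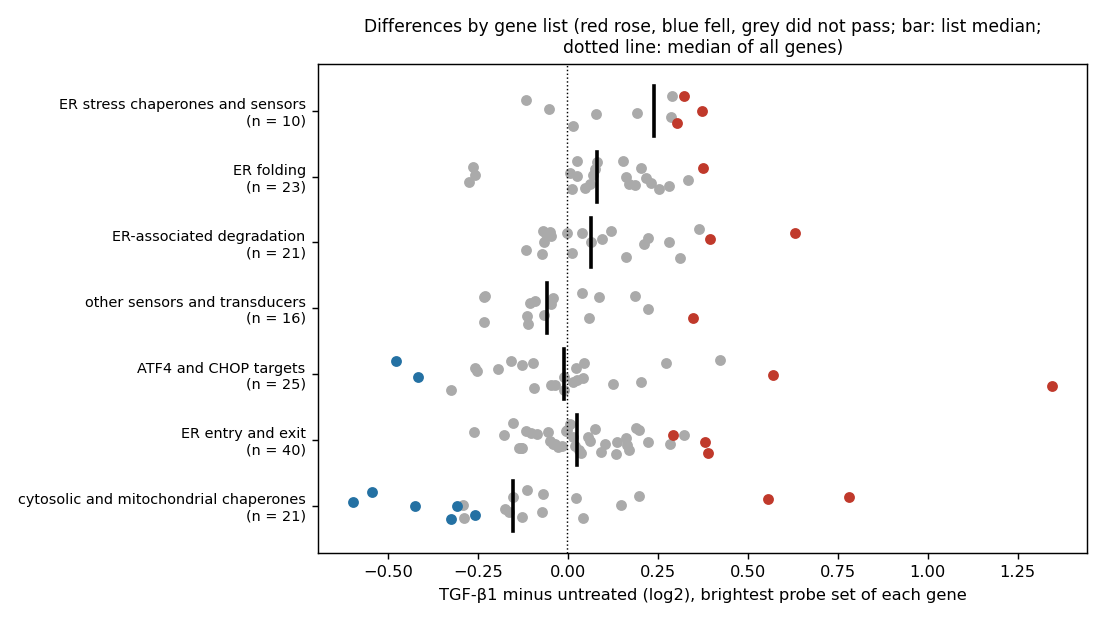
TGF-β1 minus untreated difference (log2) of the representative probe set of each measured gene, by list, with red for genes that rose, blue for genes that fell, grey for genes that did not pass, a bar at each list's median and a dotted line at the median of all genes. The medians run from 0.24 for the 10 ER stress genes to -0.15 for the cytosolic and mitochondrial chaperones.

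Over all 146 measured pathway genes, 11 rose and 8 fell, 7.53% and 5.48%, against 4.03% and 4.47% of all genes, and the median difference was 0.02. Of the 146, 142 lay above the array median. Among all 13085 genes above it, 5.55% rose and 6.43% fell, with a median of -0.02. Genes were also grouped by promoter letters, a grouping made after the values were seen and described without a test. Outside the 10 genes, 15 measured genes held the exact ERSE. Of these, 12 differences were positive, 2 genes rose (CALR, itself an ER chaperone gene, and SYNPO) and 1 fell (EIF2A), with a median of 0.09. With 1 mismatch allowed there were 229 such genes, of which 13 rose and 16 fell, with a median of -0.0048. Over the 15384 measured genes with a promoter entry 4.15% rose and 4.6% fell, with a median of -0.0049; with the 10 genes included, the shares for the motif were 6.38% and 6.81%.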

How the data were processed

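The authors' deposited values are log2 expression estimates for 54675 probe sets on each of 6 arrays, made with Affymetrix Expression Console and RMA per the submitters' processing notes. Their versions are not stated. RMA equalises arrays and compresses differences of dim probe sets, and no detection calls were used. Symbols came from the platform annotation, checked through RefSeq GRCh38.p14; 19775 genes had a probe set with 1 symbol. Treated and untreated arrays were fitted over all genes in R 4.3.3 with lmFit and eBayes of limma 3.58.1, without covariates, with Benjamini-Hochberg adjustment and a threshold of 0.05. Arrays have no read depth, and the 3 arrays per group limit precision.

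The 10 genes and all lists were chosen with earlier results of these data known. Of 156 pathway genes, 146 were measured and the other 10 were not analysed here. Named genes were the 10 and, per list, the called genes with the 4 smallest p. ERN1, EIF2AK3, HSPA9, SYNPO, EIF2A and the 4 called cell markers are named outside this rule, all but ERN1 and EIF2AK3 after their values were seen. Alternatives were another normalisation, centring, filters on dim probe sets, other choices of probe set, variance models, array weights, a replicate block, a 3′ over 5′ covariate and the removal of arrays. Deviations of same-numbered arrays correlated at 0.20, 0.06 and 0.09. Only 1 exceeded the minimum of 0.1, so the numbers were not taken as pairs.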

Additional observations from a re-analysis of the deposited data

How the results depend on the processing

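In all 17 alternatives 0 of the 10 genes fell (limma, also 0 at an unadjusted p below 0.05). The number that rose, 3, became 5 among genes above a mean of 6 and with a trended robust variance, where HSP90B1 (adjusted p = 0.009 and 0.0035) and XBP1 (0.0316 and 0.0426) passed too. It was 1, HSPA5, over the mean of all probe sets, 0 without both arrays numbered 1 (5 at an unadjusted p below 0.05), and 0 to 2 without 1 array (4 or 5 at an unadjusted p below 0.05). The matching shares of all genes at an unadjusted p are not given, so these unadjusted counts stand without a background. Without suffixed probe sets (those ending in _s_at or _x_at) HERPUD1 is represented by 1569380_a_at, which differed by -0.15 (limma adjusted p = 0.53). That probe set lay below the array median, at 3.21. HSP90B1 and SEL1L have only suffixed probe sets and kept their representatives in that fit. HSPA5 missed after repeated quantile normalisation (adjusted p = 0.0527). With a replicate block 2 rose and HSPA5 missed (adjusted p = 0.0565). The calls over all genes shifted too. With all arrays 796 of 19775 genes rose and 884 fell, and above a mean of 6, 1038 of 8279 rose and 1510 fell. A trended robust variance gave 1102 and 1527 of 19775 genes. Over the mean of all probe sets 673 rose and 743 fell, and without both arrays numbered 1, 356 and 271.

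Of pathway genes, 11 rose with all arrays, 32 among genes above a mean of 6, 29 with a trended robust variance, 5 without both arrays numbered 1 and 5 to 16 without 1 array. The 8 falls became 18 among genes above the median, 21 above a mean of 6, 23 with a trended robust variance, 2 over the mean of all probe sets, 5 without suffixed probe sets, 2 without both arrays numbered 1 and 2 to 7 without 1 array. With the replicate block 9 rose and 6 fell, against 625 and 655 of all 19775 genes. Of the 13085 genes above the median, 995 rose and 1302 fell. Without suffixed probe sets 638 of all genes rose and 677 fell, and without 1 array 404 to 692 and 318 to 634. Filters test fewer genes, and fits without arrays have fewer samples; the cause of the other shifts was not tested.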
